A study of Homo sapiens with 16 samples.

Results

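Open chromatin after 24 h of ACBI-1 was set against open chromatin after 3 h of ACBI-1 in DND41 and in MOLT4, established cell lines from human T-cell acute lymphoblastic leukaemia. The comparison used the ACBI-1 libraries alone, 8 of the 16 in the series: 4 of cells given 100 nM ACBI-1 for 24 h and 4 of cells given the same dose for 3 h, with 2 libraries per line and time. The other 8 libraries were of the same lines given DMSO for 24 h or 3 h. They did not choose the lists of regions that differed between the times, and served to score them. They did define the DMSO sites used below, and their state entered the choice of some of the regions named by position. Line was a stratum in every test, save in an alternative setting without it that is given at the end. The 24 h and 3 h labels were thus exchanged only within DND41 and within MOLT4. The smallest p-value such an exact permutation test can give is 0.0556, from 36 exchanges. With line as stratum, no comparison of the times within 1 treatment could thus pass 0.05. Such comparisons are given as sizes, overlaps and p-values without calls. The difference of the time effect between ACBI-1 and DMSO has more exchanges. Its smallest possible p of 0.00154 can be reached only where the arms move opposite ways. Time labels were exchanged in both arms, so that test assumes no time effect in either arm rather than equal effects. Where both arms shifted the same way, a large p does not show that the arms were alike.

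ACBI-1 is a PROTAC, a molecule that joins a target protein to a ubiquitin ligase so that the target is degraded. Its targets are SMARCA2 and SMARCA4, the alternative ATPases of the SWI/SNF chromatin remodelling complexes, and PBRM1, a subunit of the PBAF form of the complex. SWI/SNF complexes use ATP to slide and evict nucleosomes, and many enhancers need their continued action to stay open, whereas promoters often depend on it less. ATAC-seq reads openness through the Tn5 transposase, which inserts adapters where DNA is free of nucleosomes, and a peak is a stretch with more insertions than its surroundings.

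Each library was a list of peak positions, and read depth is unknown. A missing peak may therefore lie below the detection limit of that list, and fewer cells with an open site cannot be told apart from less openness per cell. Whether replicate libraries came from separate cultures is not stated in the labels, so the p-values measure a spread between libraries that may be technical only. In 8 of the 16 samples, 4 of them ACBI-1, the cell line field named the other line. The title was followed, and the line code in the peak names matched it. Each ACBI-1 library had a peak at 35.4% to 64.8% of the sites restricted to the DMSO libraries of the line in its title. It had one at 0.571% to 4.61% of those restricted to the other line. The DMSO libraries were also assigned by title, so this shows only that the titles of the 2 arms go together. All 8 libraries of 24 h in the series carried the tag p03 in their peak names and all 8 of 3 h the tag p04, so time cannot be told apart from preparation or from any calling setting behind the tag. Libraries did not pair by replicate number.

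The number of peaks differed little between the times. DND41 libraries held 33145 and 32113 peaks at 24 h of ACBI-1, against 26145 and 31380 at 3 h. MOLT4 libraries held 33870 and 28751 peaks at 24 h, against 29478 and 30800 at 3 h. The times did not overlap in DND41 and overlapped in MOLT4. On the log2 scale 24 h minus 3 h was 0.12 ± 0.09 (SE, n = 4 libraries a time), a mean that was 8.61% higher at 24 h (exact permutation test, two-sided, p = 0.333). The log2 difference came to 0.053 without DND41 3 h replicate 1, 0.18 without DND41 3 h replicate 2 and 0.060 without MOLT4 24 h replicate 1. It was 0.22 with peaks under 170 bp left out, and with only peaks found in another library of the series it turned to -0.088. In DMSO libraries the same difference was -0.03 (exact permutation p = 0.722), and the ACBI-1 effect of time minus the DMSO effect was 0.15 (exact permutation p = 0.213).

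Peaks at the same places were wider at 24 h. At the 12420 regions with a peak in all 8 ACBI-1 libraries, the median peak width in DND41 was 695 and 693 bp at 24 h, against 539.5 and 640 bp at 3 h. In MOLT4 it was 721 and 699 bp at 24 h, against 592 and 652 bp at 3 h. Every 24 h library lay above every 3 h library of either line, by 16.2% on average (log2 difference 0.22 ± 0.07, SE; exact permutation p = 0.0556, adjusted p = 0.0889 over 8 measures of time). Over all peaks of a list the medians overlapped, at 366 ± 22.8 bp at 24 h and 353 ± 26.3 bp at 3 h (SD, n = 4 each; exact permutation p = 0.444). That difference turned to -0.0023 on the log2 scale without DND41 3 h replicate 1, and to -0.036 when peaks under 170 bp were left out of every list. It came to 0.28 with only peaks found in another library of the series and 0.20 with the 26145 widest peaks of every list (exact permutation p = 0.0556 each). The bases covered by peaks came to 14.9 ± 0.759 Mb at 24 h and 12.8 ± 1.77 Mb at 3 h (SD, n = 4 each; exact permutation p = 0.111). This log2 difference of 0.23 came to 0.12 without DND41 3 h replicate 1 and to 0.13 with only peaks found in another library of the series.

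By the median of a list, DMSO peaks were longer at 24 h. Width at regions with a peak in all libraries was not measured for DMSO. The median width of a DMSO list was 395 ± 47.5 bp at 24 h and 317 ± 25.3 bp at 3 h (SD, n = 4 each), with no overlap in either line (log2 difference 0.31, exact permutation p = 0.0556). The time effect on median width was smaller in ACBI-1 than in DMSO by 0.26 log2 (exact permutation p = 0.103). This difference between the arms was -0.31 without DND41 3 h replicate 1 and -0.20 without DND41 3 h replicate 2. It shrank to -0.11 with the 26145 widest peaks of every list (exact permutation p = 0.588). With only peaks found in another library of the series it was -0.15 (exact permutation p = 0.505). For covered bases the difference between the arms was -0.02 (exact permutation p = 0.926), and it took the other sign without DND41 3 h replicate 2 (0.09), MOLT4 24 h replicate 2 (0.0234) or MOLT4 3 h replicate 2 (0.021). The shortest peak of a list was 159 to 170 bp at 24 h of ACBI-1 and 135 to 159 bp at 3 h of ACBI-1. It was 154 to 163 bp at 24 h of DMSO and 129 to 136 bp at 3 h of DMSO. Whether the detection limit of a list set the widths was not tested.

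**Figure D1:**
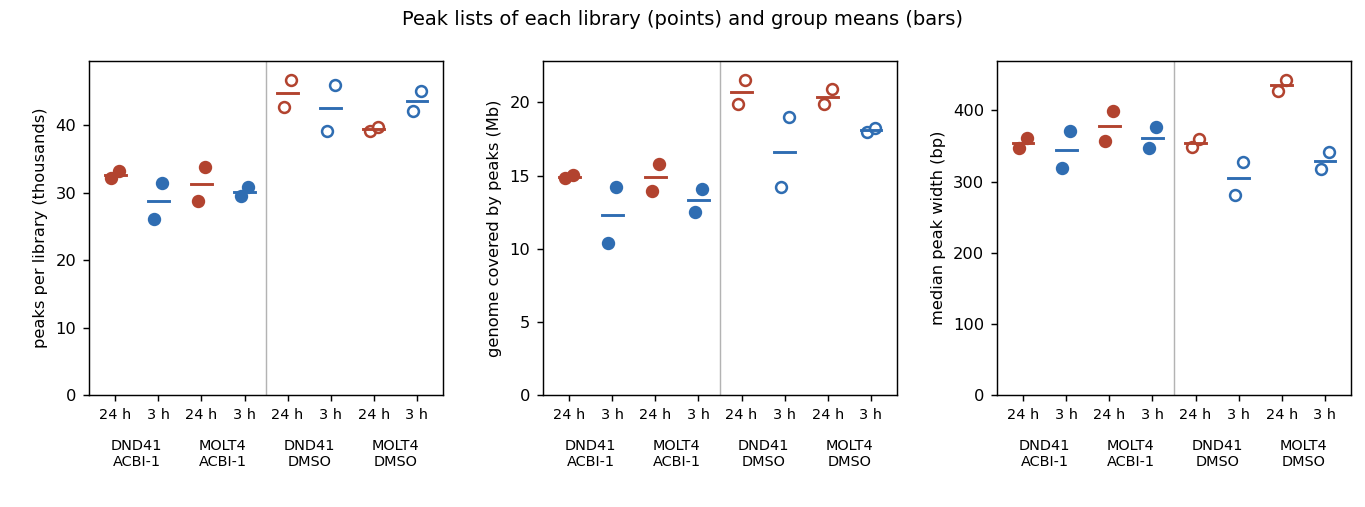
Peak number, genome covered by peaks in Mb and median peak width in bp, for each library (points) with the mean of each group (bars); filled points are ACBI-1 and open points DMSO, red is 24 h and blue 3 h. ACBI-1 libraries covered 14.9 Mb on average at 24 h and 12.8 Mb at 3 h, and DMSO lists were wider at 24 h, at 395 bp against 317 bp.

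Sites that are open without the drug were found less often at 24 h than at 3 h. Sites were merged DMSO peaks found in all 4 DMSO libraries of a line, at both times, so no ACBI-1 library chose them. By this rule every DMSO library of the line has a peak at every site. The measure therefore cannot show a time effect in DMSO to set beside that of ACBI-1. There were 24891 such sites in DND41 and 27126 in MOLT4. In DND41, 72.5% and 71.4% of them had a peak at 24 h of ACBI-1, against 77.5% and 85.9% at 3 h. In MOLT4, 70.3% and 67.8% had a peak at 24 h, against 79.7% and 83.4% at 3 h. The 24 h libraries lay below the 3 h libraries in both lines, with means of 70.5% ± 2.003 at 24 h and 81.6% ± 3.77 at 3 h (SD, n = 4 each). The difference was -11.1 percentage points ± 2.40 (SE; exact permutation p = 0.0556, adjusted p = 0.0556 over 6 classes of site).

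This result depended on what counts as a peak at a site. A peak sharing 1 base was enough in the values above. When peaks had to cover at least 50% of the site, the difference shrank to -1.63 points (exact permutation p = 0.889). The 24 h peaks were the wider ones, as given above, and the part of peak width in the share of sites was not tested further. At the sites at or over the median DMSO width of the line, the difference at 1 shared base was -4.41 points, with 24 h below 3 h again (exact permutation p = 0.0556).

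The difference was larger at narrow and middle sites, by width in DMSO, than at broad sites. Narrow sites, up to 400.5 bp in DND41 and 412 bp in MOLT4, had a peak in 41.1% ± 3.81 at 24 h and 57.8% ± 6.63 at 3 h (SD, n = 4 libraries each). Middle sites, up to 649 bp in DND41 and 666 bp in MOLT4, had one in 73.0% ± 1.85 at 24 h and 88.2% ± 4.10 at 3 h. Broad sites had one in 97.4% ± 0.452 at 24 h and 98.9% ± 0.632 at 3 h. The differences were thus -16.7, -15.2 and -1.44 points, each with 24 h below 3 h in both lines (exact permutation p = 0.0556 each). The time difference was larger at narrow than at broad sites by -15.3 points ± 3.75 and larger at middle than at broad sites by -13.8 points ± 2.20 (SE; exact permutation p = 0.0556, adjusted p = 0.0741 over 4 contrasts). Narrow and middle sites differed by -1.53 points (exact permutation p = 0.389). Nearly all broad sites had a peak at both times. With sites taken from the DMSO libraries of 24 h alone, narrow sites differed by -9.28 points, and with those of 3 h alone by -7.80 points (exact permutation p = 0.167 each). Middle sites then differed by the most of the 3 classes, at -13.8 points (24 h alone) and -19.0 points (3 h alone; exact permutation p = 0.0556 each). Broad sites then differed by -1.96 points (24 h alone) and -4.30 points (3 h alone). With at least 50% of a site covered, narrow sites differed by -5.34 points (exact permutation p = 0.389) and broad sites by 4.38 points, the other way (exact permutation p = 0.444).

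Sites found in 1 line only were the less often open ones with ACBI-1, and more so at 24 h. Of the sites open in all DMSO libraries of both lines, 80.9% ± 1.03 had a peak at 24 h and 89.7% ± 2.53 at 3 h (SD, n = 4 each). Of the sites open in 1 line and in no DMSO library of the other, 39.7% ± 4.31 had a peak at 24 h and 58.3% ± 9.03 at 3 h. The difference was -8.84 points at shared and -18.6 points at line-restricted sites. The contrast between them was -9.75 points ± 3.33 (SE; exact permutation p = 0.0556, adjusted p = 0.0741). At sites at or over the median DMSO width of the line, the differences were -3.09 points (shared) and -13.2 points (line-restricted; exact permutation p = 0.0556 each). The classes were not matched for width, and the part of site width in the contrast was not tested. In DND41 the line-restricted sites with a peak were 37.1% and 35.4% at 24 h, against 45.2% and 63.7% at 3 h. In MOLT4 they were 44.9% and 41.5% at 24 h, against 59.5% and 64.8% at 3 h. With at least 50% of a site covered, the shared sites differed by 0.187 points (exact permutation p = 1) and the line-restricted sites by -8.79 points (exact permutation p = 0.222). With sites from the DMSO libraries of 24 h alone, the line-restricted sites differed by -10.6 points (exact permutation p = 0.111).

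**Figure D2:**
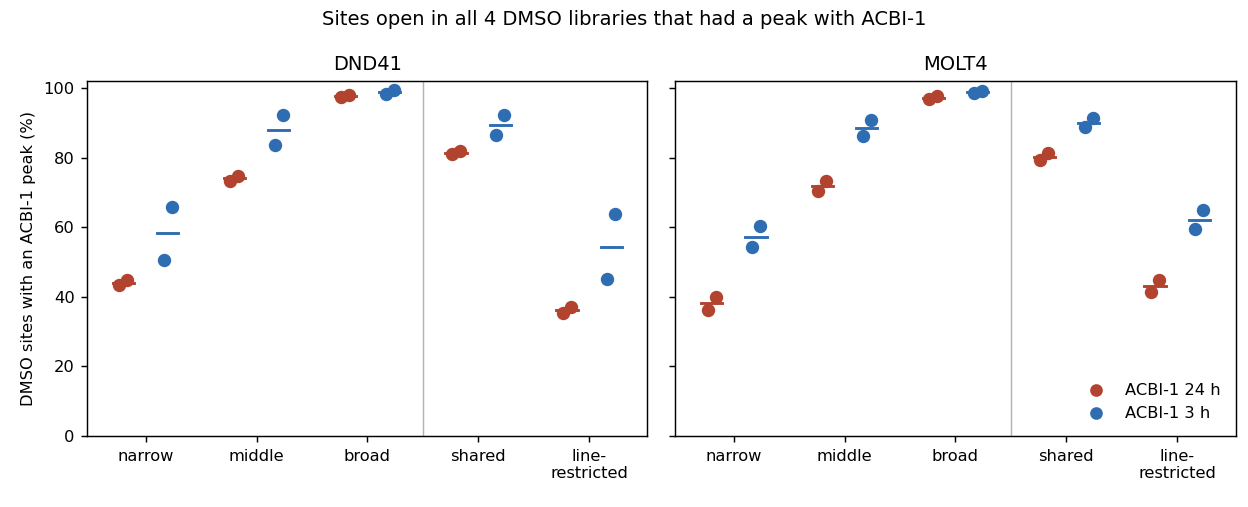
Percent of sites open in all 4 DMSO libraries of the line that had a peak in each ACBI-1 library (points, with group means as bars), by tertile of DMSO width and by sharing with the other line. At narrow sites the means were 41.1% at 24 h and 57.8% at 3 h, whereas at broad sites they were 97.4% at 24 h and 98.9% at 3 h.

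Most DMSO sites seen at 3 h of ACBI-1 were still seen at 24 h. Both libraries of both times had a peak at 15003 sites in DND41 (60.3%) and 15920 in MOLT4 (58.7%), and the median DMSO width of these sites was 667 bp in DND41 and 691 bp in MOLT4. Sites with a peak in neither 24 h library and both 3 h libraries numbered 1720 in DND41 (6.91%) and 2357 in MOLT4 (8.69%). They were narrower in DMSO, at a median of 398 bp in DND41 and 403 bp in MOLT4. The reverse pattern, a DMSO site in both 24 h libraries and neither 3 h library, held at 277 sites in DND41 (1.11%) and 263 in MOLT4 (0.97%). Sites with no peak at either time numbered 1991 in DND41 (7.999%) and 2413 in MOLT4 (8.90%) and were the narrowest of these classes, at 290 bp in DND41 and 295 bp in MOLT4. Sites in both 3 h and neither 24 h library were less often shared between the lines than sites in all of them. The shares were 61.7% of the 1720 and 90.0% of the 15003 in DND41, and 50.5% of the 2357 and 84.7% of the 15920 in MOLT4. Low sharing was not particular to these sites. For the reverse pattern it was 48.4% in DND41 and 36.9% in MOLT4. For sites with no peak it was 38.4% in DND41 and 31.9% in MOLT4, and for the remaining sites 51.8% and 48.2%.

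The peaks of the 8 ACBI-1 libraries merged into 83684 regions. A single library held 44460 (53.1%) and all 8 held 12420 (14.8%). Regions with a peak in both 24 h libraries and neither 3 h library numbered 1733 in DND41, 3.05% of the regions of the line, and 1510 in MOLT4, 2.78%. Regions with a peak in neither 24 h library and both 3 h libraries numbered 2305 in DND41, 4.05%, and 3125 in MOLT4, 5.76%. Both lines together gave 133 regions of 24 h only, 0.159% of all regions, and 345 of 3 h only, 0.412%. These lists were chosen on the contrast itself, so their sizes are a description.

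Under the same rule the DMSO libraries gave 3 h lists with like shares of regions in each line. The shares were smaller than with ACBI-1 in the 24 h lists and in the lists common to both lines. DMSO regions of 24 h only numbered 1432 in DND41 (1.92%) and 1162 in MOLT4 (1.92%), with 79 in both lines (0.0803%). DMSO regions of 3 h only numbered 3051 in DND41 (4.09%) and 3318 in MOLT4 (5.49%), with 215 in both lines (0.218%). In either arm the list of 3 h was thus longer than the list of 24 h. With peaks under 170 bp left out, this order turned for ACBI-1 in DND41, with 2005 regions of 24 h only and 1673 of 3 h only, and held in MOLT4, with 1645 of 24 h only and 2647 of 3 h only. A list that rests on 1 library of a group is longer by construction. Without 1 or the other 24 h library, the 24 h lists of ACBI-1 held 11058 and 11721 regions in DND41 and 7570 and 11739 in MOLT4. Without 1 or the other 3 h library, the 3 h lists held 8824 and 5931 regions in DND41 and 8110 and 7730 in MOLT4. Leaving out DND41 24 h replicate 1 lengthened the DND41 3 h list to 3559, and leaving out DND41 3 h replicate 2 lengthened the DND41 24 h list to the same number. The MOLT4 24 h list came to 2269 without 3 h replicate 1 and 2689 without 3 h replicate 2. The lists common to both lines came to 171 to 269 regions of 24 h only and 435 to 638 of 3 h only with a library left out.

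The regions of 3 h only were, for the most part, sites that are open in DMSO. Of the 2305 in DND41, 1735 (75.3%) had a peak in all 4 DMSO libraries of the line and 83 (3.60%) in none. Of the 3125 in MOLT4, 2390 (76.5%) had a peak in all 4 DMSO libraries and 110 (3.52%) in none. Regions in all 4 ACBI-1 libraries of the line were open in all 4 DMSO libraries more often still. These were 14973 of 15791 in DND41 and 15873 of 16614 in MOLT4. A pattern over time like that of ACBI-1, in no 24 h and both 3 h DMSO libraries, held at 89 (3.86%) in DND41 and 119 (3.81%) in MOLT4. Pooled over the lines, 76.0% of the 3 h list was open in all DMSO libraries. Without a 3 h library this share came to 46.7% (DND41 replicate 1), 50.4% (DND41 replicate 2), 52.0% (MOLT4 replicate 1) and 49.4% (MOLT4 replicate 2), and with the 26145 widest peaks of every list it was 50.6%.

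The regions of 24 h only were of mixed origin. In DND41, 280 (16.2%) had a peak in all 4 DMSO libraries and 424 (24.5%) in none. In MOLT4, 264 (17.5%) had a peak in all 4 DMSO libraries and 369 (24.4%) in none. Both 24 h and no 3 h DMSO library had a peak at 99 (5.71%) in DND41 and 126 (8.34%) in MOLT4, and most of the others were in 1 to 3 DMSO libraries in other combinations. A peak of 24 h only was therefore in most cases a place with a peak in some DMSO library of the line. Pooled over the lines, 16.8% of the 24 h list was open in all DMSO libraries. That share ranged from 5.67% to 7.89% without 1 of the 24 h libraries and from 21.1% to 27.7% without 1 of the 3 h libraries, and it was 5.63% with lists of equal length.

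**Figure D3:**
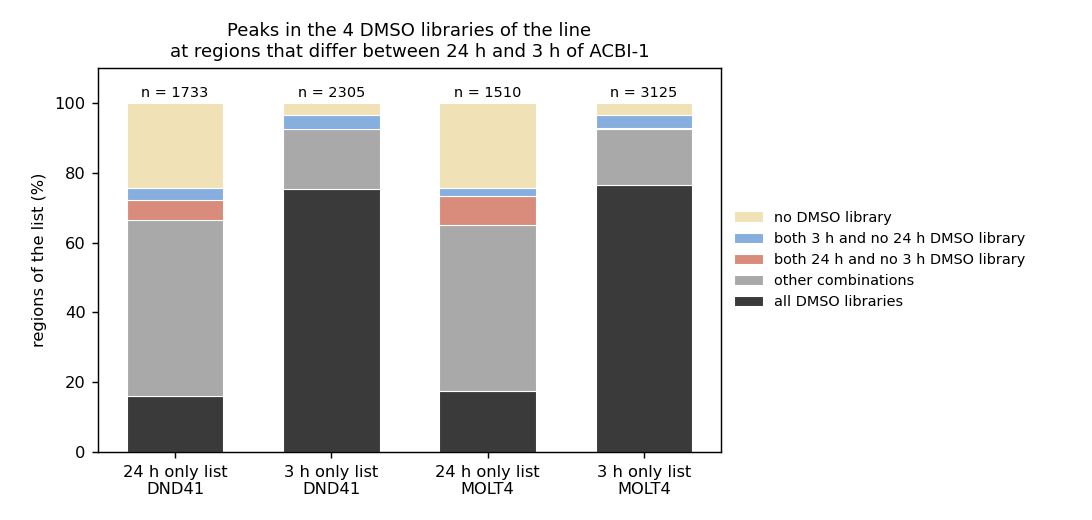
Share in percent of the regions of 24 h only and 3 h only, by line, with a peak in all, none or a given combination of the 4 DMSO libraries of that line. Peaks in every DMSO library were found at 16.2% and 17.5% of the 24 h lists and at 75.3% and 76.5% of the 3 h lists.

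Most regions of both lists had peaks narrower, by their mean width percentile, than the median of their libraries. The share that was wider was 20.02% in DND41 and 15.4% in MOLT4 for 24 h only, and 18.6% in DND41 and 14.2% in MOLT4 for 3 h only. The median peak width was 288.5 bp in DND41 and 284.5 bp in MOLT4 for the regions of 24 h only, against 265 bp in DND41 and 266 bp in MOLT4 for the regions of 3 h only. Regions in all 4 libraries of the line had medians of 580 bp in DND41 and 604 bp in MOLT4. Chromosome 19, which is gene-rich, held 3.64% of the regions of 24 h only in DND41 and 7.62% in MOLT4, against 0.477% of the regions of 3 h only in DND41 and 0.544% in MOLT4. It held 4.76% of the regions in all 4 libraries in DND41 and 5.44% in MOLT4. Chromosome X held 1.56% and 0.795% of the 24 h lists, against 3.73% and 3.62% of the 3 h lists, in DND41 and MOLT4 in that order. These shares describe lists of the contrast and were not tested.

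The mean share of a list with a peak shifted in the same direction in the other line, whose libraries did not choose it. Regions off the lists were not scored in this way, so whether the shift is particular to the lists was not tested. Most regions of a list showed no difference in the other line. The other line had equally many libraries with a peak at both times at 62.1% of the DND41 and 61.1% of the MOLT4 regions of 24 h only, and at 56.5% of the DND41 and 62.9% of the MOLT4 regions of 3 h only. The 24 h list of DND41 had a peak in 41.8% and 37.0% of its regions in MOLT4 at 24 h, against 24.6% and 28.6% at 3 h. The 24 h list of MOLT4 had a peak in 37.9% and 37.0% of its regions in DND41 at 24 h, against 17.0% and 25.03% at 3 h. The 24 h libraries were higher in both lines, by 14.6 points ± 2.56 (SE; exact permutation p = 0.0556, adjusted p = 0.0889), with means of 38.4% ± 2.27 at 24 h and 23.8% ± 4.89 at 3 h (SD, n = 4 each). DMSO libraries of the other line scored 38.5% at 24 h and 32.3% at 3 h on the same lists. The ACBI-1 difference exceeded the DMSO difference by 8.41 points ± 4.53 (SE; exact permutation p = 0.275). With 1 library left out the ACBI-1 difference was smallest without MOLT4 24 h replicate 1, at 8.02 points, and the difference between the arms came to 4.76 points without that library, 4.80 points without DND41 24 h replicate 1 and 5.45 points without DND41 24 h replicate 2. With peaks under 170 bp left out, the difference between the arms was 5.02 points (exact permutation p = 0.645).

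The 3 h lists gave the opposite order. The list of DND41 had a peak in 22.2% and 18.5% of its regions in MOLT4 at 24 h, against 41.5% and 46.9% at 3 h. The list of MOLT4 had a peak in 22.7% and 22.05% of its regions in DND41 at 24 h, against 35.8% and 45.3% at 3 h. The 24 h libraries were lower in both lines, with a difference of -21.0 points ± 2.89 (SE; exact permutation p = 0.0556, adjusted p = 0.0889). For scale, the DMSO sites of a line, scored in that line, differed by -11.1 points in all and -16.7 points at narrow sites. Whether the 3 h lists fell by more than like sites was not tested. DMSO libraries of the other line also scored lower at 24 h, at 56.8% against 66.2% at 3 h. The ACBI-1 difference minus the DMSO difference was -11.6 points ± 3.51 (SE; exact permutation p = 0.255). The difference in the ACBI-1 arm came to -12.3 points without DND41 3 h replicate 2, and the difference between the arms then to -4.96 points and without MOLT4 3 h replicate 2 to -6.94 points. With the 26145 widest peaks of every list the difference between the arms was -16.3 points (exact permutation p = 0.0556).

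DMSO libraries of the same line shifted in the same direction. On the 24 h lists they scored 49.2% ± 1.999 at 24 h and 40.7% ± 8.17 at 3 h (SD, n = 4 each), a difference of 8.47 points (exact permutation p = 0.167) with overlap between the times in DND41. With peaks under 170 bp left out this difference was 18.2 points (exact permutation p = 0.0556), and without MOLT4 24 h replicate 1 or 2 it was 5.10 or 4.34 points. On the 3 h lists they scored 84.1% ± 0.773 at 24 h and 91.8% ± 2.20 at 3 h, a difference of -7.68 points without overlap (exact permutation p = 0.0556, adjusted p = 0.111 over 6 measures of DMSO). With peaks under 170 bp left out it was -4.42 points (exact permutation p = 0.111). DMSO libraries of the same times thus moved with the lists, and how much of a list is the drug and how much is time or preparation cannot be told apart.

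**Figure D4:**
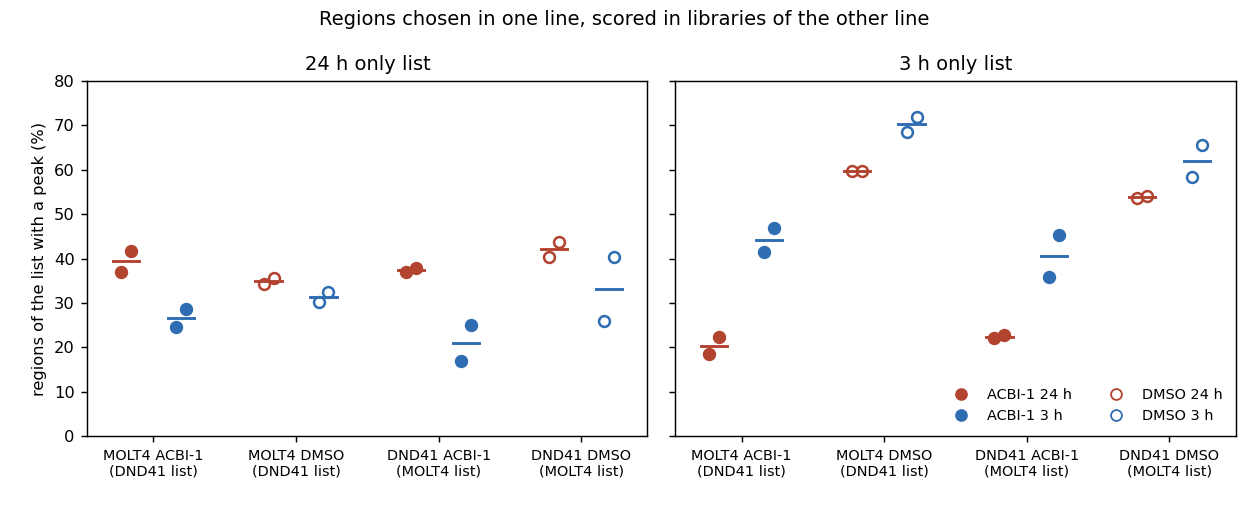
Percent of the regions of 24 h only (left) and 3 h only (right) of 1 line with a peak in each library of the other line, filled for ACBI-1 and open for DMSO, with group means as bars. ACBI-1 libraries scored 38.4% at 24 h and 23.8% at 3 h on the 24 h lists, and 21.4% at 24 h and 42.4% at 3 h on the 3 h lists.

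The full state of a region was seldom the same in both lines. The 133 regions of 24 h only in both lines made up 7.67% of the DND41 list and 8.81% of the MOLT4 list. The 345 of 3 h only in both lines made up 14.97% of the DND41 list and 11.0% of the MOLT4 list. No ACBI-1 library of the other line had a peak at 42.5% of the DND41 and 45.6% of the MOLT4 regions of 24 h only, nor at 42.7% of the DND41 and 47.2% of the MOLT4 regions of 3 h only. Of the 133 regions 9 (6.77%) were open in all 8 DMSO libraries, and of the 345 regions 283 (82.0%). No DMSO library had one at 4 of the 133 (3.01%) and at 1 of the 345 (0.290%).

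The regions of 3 h only in both lines that ranked highest by peak width, among those open in all 8 DMSO libraries, lay on chromosomes 12, X, 3 and 11. They are given by hg19 position. At chr12:27687268-27687943 no 24 h library of ACBI-1 had a peak, against peaks of 379 and 632 bp in DND41 and 478 and 587 bp in MOLT4 at 3 h. DMSO peaks there were 538 to 622 bp at 24 h and 534 to 600 bp at 3 h. The site was thus of like size in DMSO at both times and had no listed peak after 24 h of the drug.

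At chrX:15176597-15177417 the 3 h peaks of ACBI-1 were 306 and 544 bp in DND41 and 501 and 725 bp in MOLT4, with none at 24 h. DMSO peaks there were 351 to 750 bp at 24 h and 469 to 730 bp at 3 h. At chr3:100318949-100319534 the 3 h peaks were 506 and 567 bp in DND41 and 507 and 422 bp in MOLT4, with none at 24 h. The fourth, chr11:27302967-27303743, had 3 h peaks of 215 and 576 bp in DND41 and 624 and 711 bp in MOLT4 and none at 24 h. Its DMSO peaks ran to 314 to 758 bp at 24 h and 274 to 730 bp at 3 h. All 4 places had a peak in every DMSO library and in every 3 h library of ACBI-1.

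No DMSO library held 4 of the regions of 24 h only in both lines. These are all such regions, whereas the 3 h regions above ranked widest of 283, so the widths cannot be compared. At chr3:172313672-172314314 the 24 h peaks of ACBI-1 were 450 and 504 bp in DND41 and 420 and 301 bp in MOLT4, with no peak at 3 h. At chr16:85686336-85686779 they were 361 and 287 bp in DND41 and 435 and 271 bp in MOLT4. At chr20:31377721-31378253 they were 259 and 232 bp in DND41 and 471 and 228 bp in MOLT4. The last, chr9:71642661-71643005, had 345 and 256 bp in DND41 and 257 and 239 bp in MOLT4. These 4 places had a listed peak in every 24 h library of ACBI-1 and in none of the other 12 libraries.

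Other regions of 24 h only were open in DMSO as well. The widest-ranked, chr1:198904036-198904937, had ACBI-1 peaks of 873 and 900 bp in DND41 and 705 and 237 bp in MOLT4 at 24 h and none at 3 h. All 8 DMSO libraries had a peak there, of 743 ± 159 bp at 24 h and 299 ± 26.0 bp at 3 h (SD, n = 4 each). The DMSO peaks at this place were thus the wider ones at 24 h too. At chr4:121471492-121472351 the ACBI-1 peaks at 24 h were 651 and 316 bp in DND41 and 563 and 675 bp in MOLT4, whereas 6 DMSO libraries had peaks of 191 to 281 bp.

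Regions that differed in 1 line and had the same state at both times in the other were also named by rank. At chr10:45408760-45409659 DND41 had no peak at 24 h of ACBI-1, against 784 and 813 bp at 3 h, and MOLT4 had none at either time. DND41 DMSO peaks there were 790 and 900 bp at 24 h and 840 and 900 bp at 3 h. At chr1:223496873-223497672 MOLT4 had no peak at 24 h of ACBI-1, against 741 and 800 bp at 3 h, and DND41 had none at either time. MOLT4 DMSO peaks there were 800 and 794 bp at 24 h and 675 and 800 bp at 3 h. Both are sites open in DMSO in that line with no listed peak after 24 h of ACBI-1. The other line had DMSO peaks there too. At the chromosome 10 region those of MOLT4 were 212 and 271 bp at 24 h and 398 and 384 bp at 3 h. At the chromosome 1 region those of DND41 were 485 and 723 bp at 24 h, and 378 bp in 1 library at 3 h.

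In the other direction, at chr1:155139559-155140557 MOLT4 had peaks of 996 and 938 bp at 24 h of ACBI-1 and none at 3 h, and DND41 had none at either time. MOLT4 DMSO peaks there were 237 and 311 bp at 24 h and 282 and 158 bp at 3 h, so the peak after 24 h of the drug was wider than in DMSO. In DND41, 1 DMSO library had a peak there, of 201 bp at 24 h. At chr2:6972922-6973785 DND41 had peaks of 566 and 864 bp at 24 h of ACBI-1, against none at 3 h, and MOLT4 had none in any of its 8 libraries. DND41 DMSO peaks there were 292 and 704 bp at 24 h, and 230 bp in 1 of the 2 libraries at 3 h. Both arms of DND41 thus had a peak there in both 24 h libraries.

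A larger share of each 24 h list lay outside the DMSO peaks of its line. In DND41, 8668 peaks (26.2%) and 8115 peaks (25.3%) of the 24 h lists shared no base with any peak of the 4 DMSO lists, against 2591 (9.91%) and 3355 (10.7%) of the 3 h lists. In MOLT4, 9101 (26.9%) and 5378 (18.7%) of the 24 h peaks did so, against 2780 (9.43%) and 2541 (8.25%) of the 3 h peaks. The 24 h libraries lay above the 3 h libraries in both lines, by 14.7 points ± 2.08 (SE; exact permutation p = 0.0556, adjusted p = 0.0889). With only peaks found in another library of the series, the difference was 3.25 points (exact permutation p = 0.0556), and with lists of equal length it was 10.6 points (exact permutation p = 0.0556).

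Few of these peaks recurred. The classes inside and outside DMSO were themselves set by peaks in other libraries of the line. A gap in recurrence between the classes is thus in part fixed in advance. Of the peaks outside DMSO, 7.23% ± 1.67 at 24 h and 5.88% ± 1.45 at 3 h (SD, n = 4 each) had a peak in the other library of the group, against 81.3% ± 2.44 at 24 h and 81.2% ± 6.63 at 3 h for the peaks inside DMSO. In number, 555 and 568 recurred at 24 h in DND41, against 142 and 135 at 3 h. In MOLT4, 534 and 519 recurred at 24 h, against 187 and 185 at 3 h. Peaks outside DMSO were short, with medians of 202 to 215 bp at 24 h and 173 to 201 bp at 3 h, and those inside DMSO had medians of 467 to 499 bp at 24 h and 351 to 412 bp at 3 h. Most of the peaks at 24 h that DMSO lists lacked were thus short peaks of a single library.

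DMSO libraries scored in the same way, each against the other 3 of its line, had 27.3% and 22.3% of peaks outside at 24 h in DND41, against 16.3% and 12.9% at 3 h. In MOLT4 they had 12.6% and 11.3% at 24 h, against 14.1% and 8.96% at 3 h. The DMSO difference was 5.30 points (exact permutation p = 0.167), and that of ACBI-1 libraries against 3 DMSO lists was 15.2 points (exact permutation p = 0.0556). The difference between the arms was 9.85 points ± 2.91 (SE; exact permutation p = 0.174).

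**Figure D5:**
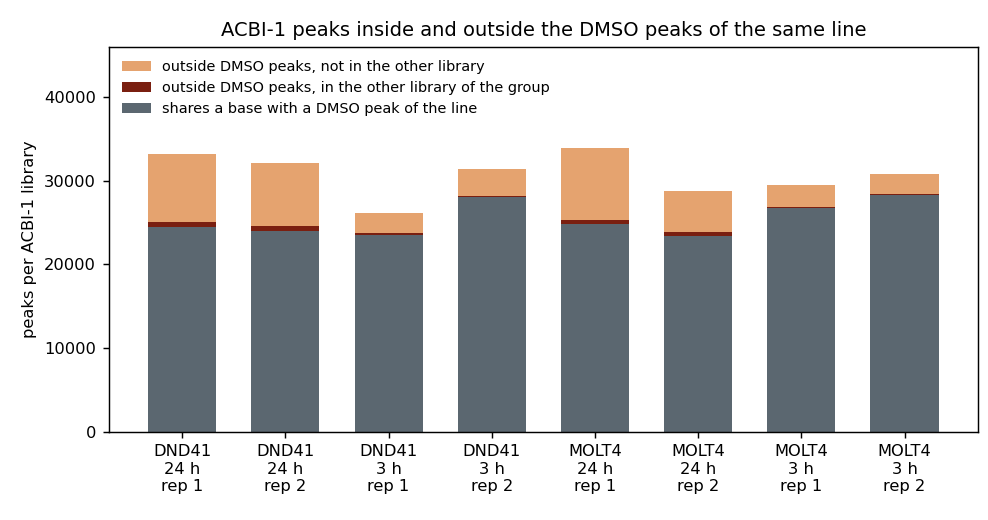
Number of peaks of each ACBI-1 library that share a base with a DMSO peak of the line (grey), or lie outside with (dark red) or without (orange) a peak in the other library of the group. Outside peaks numbered 5378 to 9101 at 24 h and 2541 to 3355 at 3 h, and 519 to 568 of them recurred at 24 h against 135 to 187 at 3 h.

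Libraries of 24 h resembled each other less than libraries of 3 h. The 2 libraries of a group shared 44.7% of their union of regions in DND41 and 48.2% in MOLT4 at 24 h, against 56.7% in DND41 and 61.0% in MOLT4 at 3 h. Between the lines, 24 h libraries shared 36.4% to 38.3% and 3 h libraries 44.5% to 46.0%. Libraries of 1 line at different times shared 45.2% to 50.3%, so the DND41 24 h replicates shared no more with each other than with the 3 h libraries of the line. Peaks found in 1 of the 8 ACBI-1 libraries numbered 7520 ± 1711 per library at 24 h and 3596 ± 817 at 3 h (SD, n = 4 each). Each pair of libraries enters several of these values, and no test was made.

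Regions found in at least 2 ACBI-1 libraries and lying close together, within the distance commonly used to stitch neighbouring enhancers, formed 1952 loci of at least 3 regions. At 45 loci (2.31%) both 24 h libraries of each line had more regions with a peak than both 3 h libraries, and at 62 loci (3.18%) they had fewer. The loci were chosen by this contrast, and the values below describe them. With a 5 kb gap the numbers were 6 with more and 14 with fewer, and with at least 5 regions a locus they were 18 with more and 8 with fewer. With peaks under 170 bp left out, the order turned, with 58 loci with more and 26 with fewer. It also turned without DND41 3 h replicate 2, with 83 loci with more and 61 with fewer, and without MOLT4 3 h replicate 2, with 70 with more and 66 with fewer.

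The largest deficit was at chr1:172608178-172648790, a locus of 7 regions. DND41 had 3 and 2 regions with a peak at 24 h of ACBI-1, against 7 and 7 at 3 h. MOLT4 had 1 and 1 at 24 h, against 3 and 3 at 3 h. All 4 DND41 DMSO libraries had 7, and MOLT4 DMSO libraries had 4 and 4 at 24 h and 4 and 3 at 3 h, so the 3 h ACBI-1 libraries stood close to DMSO and the 24 h libraries below. At chr9:631611-650871, with 3 regions, DND41 had 0 and 0 at 24 h, against 2 and 2 at 3 h, and MOLT4 had 0 and 1 at 24 h, against 3 and 3 at 3 h. DMSO libraries had 2 in DND41 and 3 in MOLT4 at both times. At chr2:59528862-59554574, with 4 regions, DND41 had 2 and 1 at 24 h, against 3 and 3 at 3 h, and MOLT4 had 1 and 1 at 24 h, against 4 and 4 at 3 h.

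The largest excess was at chr14:106539011-106610633, with 11 regions. DND41 had 7 and 7 with a peak at 24 h of ACBI-1, against 2 and 5 at 3 h, and MOLT4 had 7 and 7 at 24 h, against 6 and 4 at 3 h. DMSO libraries there also had more at 24 h, with 7 and 7 in DND41, against 5 and 5 at 3 h, and 8 and 7 in MOLT4, against 6 and 5 at 3 h. The neighbouring chr14:106714251-106734527, with 4 regions, had 3 and 4 in DND41 at 24 h, against 1 and 2 at 3 h, and 4 and 2 in MOLT4 at 24 h, against 0 and 0 at 3 h. At chr19:54876216-54900640, with 5 regions, DND41 had 2 and 3 at 24 h, against 1 and 1 at 3 h, and MOLT4 had 5 and 4 at 24 h, against 1 and 2 at 3 h. DMSO libraries there had 4 and 5 at 24 h in DND41, against 3 and 2 at 3 h, and 5 and 4 at 24 h in MOLT4, against 4 and 4 at 3 h.

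Peaks were spread over the chromosomes in nearly the same shares at both times. For 6 of 23 chromosomes the 24 h libraries did not overlap the 3 h libraries in either line, at the smallest possible exact permutation p of 0.0556. No chromosome had an unadjusted p of 0.05 or less, which this design cannot give, and the lowest adjusted p was 0.213. The shares of peaks were 7.86% ± 0.375 at 24 h and 6.995% ± 0.188 at 3 h for chromosome 4, and 2.22% ± 0.177 at 24 h and 2.86% ± 0.155 at 3 h for chromosome X (SD, n = 4 each). Chromosome 19, with 3.80% ± 0.774 at 24 h and 3.40% ± 0.339 at 3 h, overlapped in DND41 (exact permutation p = 0.222). With only peaks found in another library, 12 chromosomes did not overlap.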

How the data were processed

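ATAC-seq libraries of DND41 and MOLT4 cells were grouped by line, treatment and time from the sample titles. Bowtie2, Picard, SAMtools, MACS2 2.1.1.2016030 and the hg19 build are named, per the submitters' processing notes, with no roles or settings. The authors deposited 1 peak list per library with chromosome, start, end and name. Only positions were used here, so there is no depth and no counting interval.

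Peaks on chromosomes 1 to 22 and X sharing at least 1 base were merged, and each library was scored for a peak in every region. Positions are in hg19 and start at 1. The gene and sequence tables at hand use a different build, so genes were not assigned, no sequence was printed, and the planned gene lists, cell markers and sequences were not run. Values per library were tested with two-sided exact permutation tests that exchanged time labels within line (36 exchanges). For the difference between ACBI-1 and DMSO, labels were exchanged within line and arm (1296 exchanges). The smallest possible p of that test is 0.00154, and only where the arms move opposite ways. Benjamini-Hochberg adjustment was made within families. Site width classes were tertiles of DMSO width within each line.

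Named regions were ranked by peak width, taken as its percentile in the list of each library with the peak and averaged. In both lines, 4 of each direction came from regions with all DMSO libraries (3 h only) or none (24 h only), then the top of the rest. Per line, regions with an unchanged state in the other line were ranked. Loci were ranked by the mean difference over the lines, up to 5 per direction, with ties at the last place in both. The members, lists and tests were chosen with earlier results of these data known. The ACBI-1 minus DMSO difference for the lists in the other line, the peaks outside DMSO peaks and the sites at or over the median DMSO width were added after seeing the data.

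Whether same-numbered libraries pair was checked by the correlation of their deviations, which was 0.0136 in DND41 and 0.0110 in MOLT4. Scripts were tested on simulated presence calls and run with Python 3.11.15, NumPy 2.4.6, SciPy 1.17.1 and matplotlib 3.10.9.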

Additional observations from a re-analysis of the deposited data

Results flagged for a closer look

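Some regions went opposite ways in the lines. At 19 of the 83684 regions DND41 had a peak in both 24 h and neither 3 h library of ACBI-1, while MOLT4 had the reverse. They made up 1.10% of the DND41 list of 24 h only and 0.608% of the MOLT4 list of 3 h only. At the widest, chr4:163785995-163786653, DND41 had peaks of 471 and 199 bp at 24 h and MOLT4 had peaks of 479 and 294 bp at 3 h. DMSO peaks there were in MOLT4 only, of 219 bp in 1 library at 24 h and 392 and 138 bp at 3 h. At 14 regions DND41 had a peak in neither 24 h and both 3 h libraries, while MOLT4 had the reverse. They made up 0.607% of the DND41 list of 3 h only and 0.927% of the MOLT4 list of 24 h only. At the widest, chr14:56616589-56617173, MOLT4 had peaks of 458 and 313 bp at 24 h and DND41 had peaks of 297 and 484 bp at 3 h. DMSO peaks there were 361 and 474 bp at 24 h and 332 bp in 1 library at 3 h in DND41. In MOLT4 they were 449 and 546 bp at 24 h and 272 bp in 1 library at 3 h. Every library of a line goes one way at these regions because they were chosen so. The difference between the lines was not tested at any single region. The numbers stand beside 133 and 345 regions with the same state in both lines.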

How the results depend on the processing

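The alternatives were run on 32 results and on 28 named regions and 10 named loci. All sequences, regions merged over 16 libraries, sites from DMSO of 24 h or of 3 h, and sites at or over the median DMSO width changed no direction. Without line as a stratum, p was 0.0286 for 10 results whose values stayed as given (0.22, 14.6, -21.0, -11.1, -16.7, -15.2, -1.44, -8.84, -18.6 and 14.7). With the replicate number as a block, 14 results kept their direction, and the smallest p that 16 exchanges allow, 0.125, was reached by the same 10. The log2 difference in peak number was 0.12 under the block (exact permutation p = 0.375), and same-numbered libraries share only a number.

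With peaks of at least 170 bp the median width turned to -0.036, the 24 h list in all DMSO libraries became 13.2% and loci with fewer regions 26, against 58 with more. With lists of 26145 peaks these shares were 5.63% and 50.6%, and peak number, equal by construction, gives no value. With supported peaks the peak number turned to -0.088 and 12 chromosomes stood apart. Merging at 100 shared bases gave 77.4% and midpoint windows 74.7% for the 3 h list. With 50% of a site covered, broad sites turned to 4.38 and shared sites to 0.187 points. Loci numbered 6 and 14 with a 5 kb gap, and 18 and 8 with at least 5 regions.

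With 1 library left out, regions of 24 h only ranged from 1731 to 11721 in DND41, 1507 to 11739 in MOLT4 and 171 to 269 in both lines. Regions of 3 h only ranged from 2306 to 8824, 3126 to 8110 and 435 to 638. Shares in all DMSO libraries ranged from 5.67% to 27.7% for the 24 h and 46.7% to 76.0% for the 3 h lists. Loci ranged from 47 to 83 with more regions. The median width ranged from -0.0023 to 0.11, its difference between arms from -0.31 to -0.20, and that of covered bases from -0.13 to 0.090. No named region or locus changed direction in 190 comparisons, and 4 values, at 3 loci, moved. The causes were not tested beyond the construction of each setting. Positions alone do not show depth or signal.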
